A study of Mus musculus with 8 samples.

Results

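The 64 genes described here encode nuclear subunits of complexes I to IV of the mitochondrial respiratory chain, 35 by name of complex I, 4 of complex II, 8 of complex III and 17 of complex IV. They were chosen by symbol alone: genes named Nduf with a, b, c, s or v and a number, the 4 Sdh genes, genes beginning Uqcr, and genes of the Cox4 to Cox8 families. A gene's value is that of the brightest, on average, of its probe sets (groups of probes that report 1 transcript), among 133 probe sets that carry 1 symbol. Another 7 matching probe sets carry several symbols and represented no gene. The 64 genes are part of 18193 genes measured in the same way.

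RNA came from forebrain cells of FVB/N mice that were either wild type (FoxO3+/+) or FoxO3 null (FoxO3-/-), grown as secondary neurospheres, which are floating clusters regrown from dissociated first-passage spheres. Both genotypes were seeded at 50000 cells per ml into serum-free medium containing the growth factors EGF and bFGF, each at 20 ng/ml, and were collected on day 6, and each RNA was read on 1 Affymetrix mouse expression array. Each genotype had 4 arrays, 2 in set 1 and 2 in set 2. The labels give neither the age of the mice nor which part of Foxo3 the null allele lacks. They define no set, and they leave unsaid if repeated arrays stem from separate mice or cultures. The p-values for single sets, and for the difference between sets in genotype effect, therefore measure only how far repeated arrays spread. That spread may be technical. In the fits with set as a term, the spread also takes in how far the genotype difference varied between the sets.

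The respiratory chain passes electrons from nutrients to oxygen and pumps protons across the inner mitochondrial membrane, and ATP synthase uses the resulting gradient. Complex I takes electrons from NADH and complex II from succinate, complex III hands them to cytochrome c, and complex IV delivers them to oxygen. Some complex IV subunits, and the complex I family member Ndufa4, have a second gene whose product is used in other tissues or in low oxygen. FoxO3 is a transcription factor that growth factor signalling keeps out of the nucleus, and it is known for roles in metabolism and in keeping adult neural stem cells.

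Foxo3 itself was lower in every null array. Its log2 level was 10.20 ± 0.14 in wild type and 9.03 ± 0.12 in null arrays (SD, n = 4 each), which left 44.5% of the wild type signal (limma, Benjamini-Hochberg adjusted p = 0.000279). Values were normalised log2 intensities, so a difference of 1 is a change by a factor of 2 and every change is relative to the rest of the array. Of 8 neural stem and progenitor markers, 7 were measured. They included the radial glial protein genes Fabp7, at 14.48 to 14.62, and Vim, at 13.81 to 14.12. Nes, the stem cell filament nestin, rose by 0.29 over both sets (limma, Benjamini-Hochberg adjusted p = 0.0332). Of the 7, 0 passed as lower, while 4 differences were above zero, and the list median was 0.00031. The summed log2 level of the 7 was 15.85 to 15.90 in wild type and 15.80 to 15.87 in null arrays. Arrays of the same set correlated at 0.996 or more over all probe sets, and arrays of different sets at 0.991 or less. In such mixed cultures, fewer cells of a type and less RNA per cell cannot be told apart.

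Across the whole chain the genotypes lay close together. Over both sets, 0 of the 64 genes passed an adjusted p under 0.05 (limma with set as a term, Benjamini-Hochberg over all 18193 genes), and 1.6% of all genes passed. At an unadjusted p under 0.05, 7 genes (10.9%) were counted, beside 15.5% of all genes. The median difference, null minus wild type, was -0.0098 over the 64 genes and 0.0091 over all genes. For 54 of the 64 (84.4%) the difference was smaller than 0.1 in size, and this held for 70.5% of all genes. The 64 genes were also brighter, with a mean log2 level of 11.44 in wild type arrays, beside 7.64 over all genes. Their median SE over both sets was 0.051, beside 0.063. The part of brightness in these shares was not tested. The 95% interval lay within 0.25 of zero for 55 of the 64, beside 12529 of all 18193 genes. It lay within 0.5 for 62 of the 64, beside 17706 of all genes. For comparison, the smallest difference that passed anywhere on the array over both sets was 0.23.

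The sets were then taken one at a time, with all 8 arrays sharing 1 estimate of the spread. In set 1, 0 of 64 genes passed, beside 0.742% of all genes, and 2 had an unadjusted p under 0.05 (limma). The share of all genes with an unadjusted p under 0.05 in set 1 was 10.9%. In set 2, 2 genes passed and both were lower in the null, beside 1.93% of all genes in either direction and 1.21% lower, and 7 had an unadjusted p under 0.05, beside 14.3% (limma). They were Ndufa4l2 of the complex I family and Cox6b2 of complex IV. The set 1 median over the 64 genes was 0.0030 (0.015 over all genes) and the set 2 median -0.023 (0.0025 over all genes). Over the alternatives run, the first ran from -0.018 to 0.018, so its sign is not settled, and the second from -0.060 to -0.0066. A test of the difference between the sets, the genotype by set interaction, was passed by 0 of the 64 genes and by 0.187% of all genes, with 4 of the 64 at an unadjusted p under 0.05, beside 8.7% of all genes (limma). Differences above zero numbered 27 of 64 over both sets, 32 in set 1 and 23 in set 2, where 54.2%, 55.6% and 50.8% of all genes were above zero. The plot of every gene's difference in each set shows the tight column of values around zero.

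**Figure D1:**
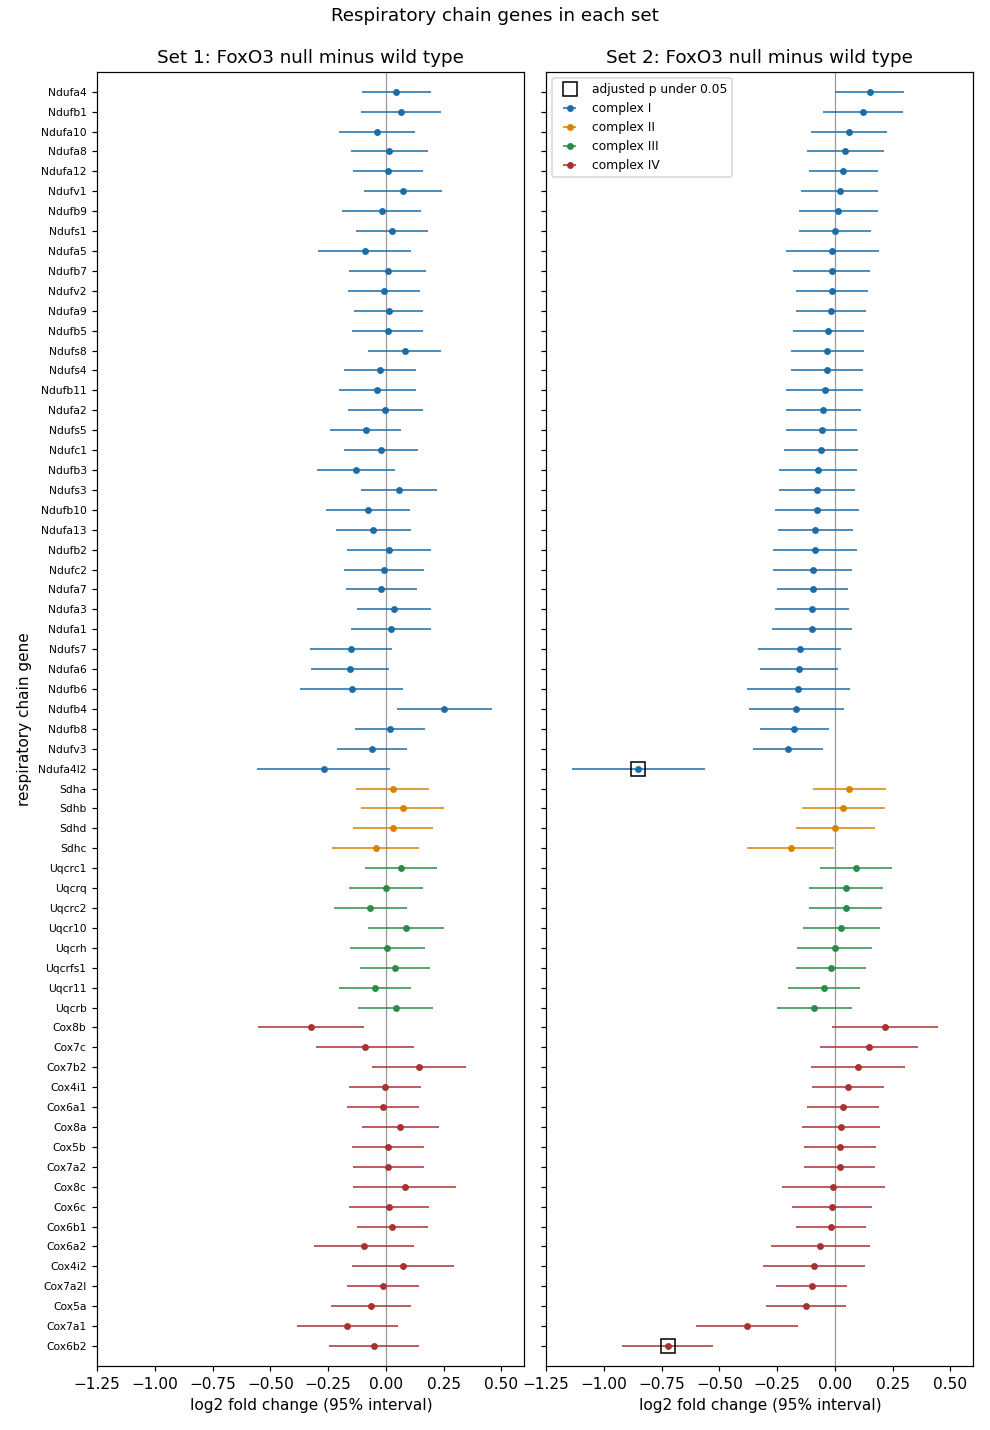
FoxO3 null minus wild type log2 difference of the 64 genes in set 1 (left) and set 2 (right), ordered within each complex by the set 2 value; dots are fitted differences, lines their 95% intervals and open squares mark an adjusted p under 0.05. Most dots lie near zero in both sets, and Ndufa4l2 (-0.85) and Cox6b2 (-0.72) stand apart in set 2.

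Complex I, the NADH dehydrogenase, held 1 of these changes only if Ndufa4l2 is counted under it by name, as it is here. Its 35 genes had a median of -0.033 over both sets, -0.0072 in set 1 and -0.058 in set 2, and 9, 16 and 8 of the 35 differences were above zero. In set 2, both null arrays lay below both wild type arrays for 17 of the 35 genes and above them for 3. Over all 64 genes that count was 24 lower (37.5%, beside 21.3% of all genes) and 9 higher (14.1%, beside 23.6%). In set 1 it was 10 lower (15.6%, beside 17.7% of all genes) and 10 higher (15.6%, beside 23.3%). Genes lower without overlap in each set numbered 7 of 64 (10.9%, beside 6.54% of all genes): Ndufa4l2, Ndufa6, Ndufb3, Ndufs5, Ndufs7, Ndufv3 and Cox5a. Genes higher in each set were Ndufa4 and Uqcrc1 (3.12%, beside 7.77%). Of these 9, Ndufb3, Ndufs5, Ndufs7 and Cox5a are named after their values were seen.

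Ndufa4l2 encodes a relative of Ndufa4 that is known to be induced in low oxygen. In set 1 it read 7.17 and 7.04 in wild type and 6.94 and 6.73 in null arrays. In set 2 it read 7.90 and 8.13 in wild type and 7.35 and 6.99 in null arrays. Null arrays were the lower ones in both sets without overlap, although the set 2 null array at 7.35 lay above both wild type arrays of set 1. The difference in set 2 was -0.85 ± 0.13 (SE; 95% interval -1.14 to -0.56), which left 55.4% of the wild type signal (limma, Benjamini-Hochberg adjusted p = 0.0103). In set 1 it was -0.27 (adjusted p = 0.491, limma) and over both sets -0.56 (adjusted p = 0.0624, limma). The interaction, -0.58, did not pass (adjusted p = 0.344, limma), so the sets are not shown to differ. The set 2 call was lost without the wild type array 2_2 (adjusted p = 0.071, limma) or the null array 2_2 (adjusted p = 0.0617, limma). The gene has 1 probe set on this array, and its mean log2 level, 7.28, was not above that of the median gene.

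Ndufa4, which is counted here under complex I by its name and is now regarded as a subunit of complex IV, did not share that pattern. It read 12.46 and 12.46 in wild type and 12.49 and 12.52 in null arrays of set 1. In set 2 it read 12.19 and 12.18 in wild type and 12.33 and 12.34 in null arrays. The null arrays lay above the wild type ones in each set, by 0.045 and 0.15, and neither difference passed (adjusted p = 0.876 and 0.344, limma).

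The other complex I genes at the ends of the order had small differences that did not pass. Ndufb4, an accessory subunit, had the highest set 1 difference, 0.25 (adjusted p = 0.332, limma), and -0.17 in set 2. It is read here by a probe set with a low mean log2 level, 4.96. Brighter probe sets, at 11.89 and 11.81, also carry the symbols Ndufb4b and Ndufb4c and represented no gene. They were at 0.014 and 0.068 in set 1 and at -0.015 and -0.11 in set 2. Ndufs8, which carries iron-sulfur clusters of the electron path, followed in set 1 with 0.081 and was at -0.032 in set 2. Ndufa6, an accessory subunit, was at -0.15 in set 1 and -0.16 in set 2 (adjusted p = 0.508 and 0.385, limma). Ndufv3, a subunit of the NADH-binding module, read 11.67 and 11.71 in wild type and 11.48 and 11.48 in null arrays of set 2. Its set 2 arrays did not overlap, and its difference of -0.20 did not pass (adjusted p = 0.199, limma). Ndufb1, an accessory subunit, was at 0.065 and 0.12. Among the 6 nuclear genes of the catalytic core measured here, Ndufs1, Ndufs3, Ndufs7, Ndufs8, Ndufv1 and Ndufv2, set 2 differences ran from -0.15 in Ndufs7 to 0.020 in Ndufv1. Ndufs7 and Ndufb3 were the 2 genes of 64 whose 4 null arrays all lay below all 4 wild type arrays (3.12%, beside 1.69% of all genes), and 0 of 64 had the reverse order (2.02% of all genes). Their differences over both sets were -0.15 and -0.10 (adjusted p = 0.216 and 0.390, limma).

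Complex II, succinate dehydrogenase, is also an enzyme of the citrate cycle, and 0 of its 4 genes passed in any of the 4 comparisons. Sdha, the flavoprotein, read 12.35 to 12.36 in wild type and 12.38 to 12.39 in null arrays of set 1, and 12.31 to 12.38 and 12.37 to 12.45 in set 2. Its null arrays were higher without overlap in set 1 only, by 0.030. Sdhb, the iron-sulfur subunit, was at 0.072 in set 1 and 0.036 in set 2, and the membrane anchor Sdhd at 0.031 and 0.00053. Sdhc, the other membrane anchor, read 12.19 and 12.28 in wild type and 12.18 and 12.21 in null arrays of set 1. In set 2 it read 12.43 and 12.24 in wild type and 12.10 and 12.18 in null arrays. Its groups overlapped in set 1 and not in set 2, where the difference was -0.19 (adjusted p = 0.343, limma).

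Complex III, the cytochrome bc1 complex, had small differences throughout. All 8 of its genes differed by less than 0.1 over both sets, in set 1 and in set 2, and their 95% intervals over both sets all lay within 0.25 of zero. The core protein gene Uqcrc1 was highest in set 2 and second to Uqcr10 in set 1. It read 11.88 and 11.95 in wild type and 12.00 and 11.96 in null arrays of set 1, and 12.40 and 12.38 against 12.50 and 12.47 in set 2. The null arrays lay above the wild type ones each time, by 0.065 and 0.092, and neither difference passed (adjusted p = 0.817 and 0.611, limma). The other core gene, Uqcrc2, was at -0.067 and 0.047 in sets 1 and 2. The small subunits were at 0.086 and 0.028 (Uqcr10), -0.046 and -0.048 (Uqcr11), 0.042 and -0.089 (Uqcrb), -0.00026 and 0.048 (Uqcrq), and 0.0063 and -0.0016 (Uqcrh). The iron-sulfur protein gene Uqcrfs1 was at 0.040 and -0.016.

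Complex IV, cytochrome c oxidase, held the other change. Cox6b2 encodes the testis form of subunit VIb, which sits on the intermembrane space side of the complex, and Cox6b1 encodes the common form. Cox6b2 read 9.22 and 9.18 in wild type and 9.06 and 9.24 in null arrays of set 1. In set 2 it read 10.57 and 10.43 in wild type and 9.72 and 9.84 in null arrays. The groups overlapped in set 1, and in set 2 both null arrays lay well below the wild type ones. The set 2 difference was -0.72 ± 0.088 (SE; 95% interval -0.92 to -0.53), which left 60.5% of the wild type signal (limma, Benjamini-Hochberg adjusted p = 0.00338). In set 1 it was -0.052 (adjusted p = 0.891, limma) and over both sets -0.39 (adjusted p = 0.157, limma). The interaction was -0.67 and did not pass (adjusted p = 0.105, limma), whereas it passed with a variance trend in the model (adjusted p = 0.00599, limma) or over genes above the median level (adjusted p = 0.0374, limma). Cox6b1 showed no such pattern, with every array between 13.72 and 13.77 and a set 2 difference of -0.016 (95% interval -0.17 to 0.14; adjusted p = 0.948, limma).

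The 250 bases before the annotated start of each of the paired genes are shown because their products fill the same place in complex IV while their set 2 values differ. They come from RefSeq on mouse build GRCm38.p6, run 5′ to 3′ on the gene's strand, and have capitals where a searched motif matched. The Cox6b2 window is chr7:4753095-4753344 and the Cox6b1 window chr7:30626115-30626364, both on the minus strand.
Cox6b2: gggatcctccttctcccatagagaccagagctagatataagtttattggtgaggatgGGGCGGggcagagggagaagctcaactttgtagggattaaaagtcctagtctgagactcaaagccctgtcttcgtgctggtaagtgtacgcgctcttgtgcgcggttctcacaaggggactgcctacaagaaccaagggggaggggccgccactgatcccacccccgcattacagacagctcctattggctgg
Cox6b1: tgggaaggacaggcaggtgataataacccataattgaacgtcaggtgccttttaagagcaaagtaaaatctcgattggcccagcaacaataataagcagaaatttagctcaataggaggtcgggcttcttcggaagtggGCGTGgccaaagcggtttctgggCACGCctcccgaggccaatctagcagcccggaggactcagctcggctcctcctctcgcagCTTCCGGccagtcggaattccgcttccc
Both strands were searched for short motifs of factors known to act on such genes. The core that FoxO factors prefer was spelled GTAAACA in the search. For the low-oxygen factor HIF the core was spelled ACGTG in its usual form. A second form of that HIF core was spelled GCGTG instead, and because the first base differs the same stretch of 1 strand cannot match both forms. The core bound by Ets factors was spelled CCGGAAG in the search. For the mitochondrial gene regulator NRF1 the letters were GCATGCG without gaps. The Sp1 box was spelled GGGCGG in the search. The Cox6b2 window held 1 match, to the Sp1 box. The Cox6b1 window held 2 matches to the second HIF form, 1 on each strand, and 1 to the Ets core. A match is a description of the letters and not a binding site.

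Such windows were found for 51 of the 64 genes, 53 windows in all, and for Ndufa4l2 none is shown. The FoxO core was in 1 of the 53 (1.89%), beside 3.17% of 32851 windows of all genes. The first HIF form was in 10 (18.9%, beside 16.6%) and the second in 24 (45.3%, beside 28.2%). The Ets core was in 8 (15.1%, beside 6.91%) and the NRF1 core in 4 (7.55%, beside 3.02%). The Sp1 box was in 20 (37.7%, beside 32.7%). These counts are small, and the differences in share were not tested.

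**Figure D2:**
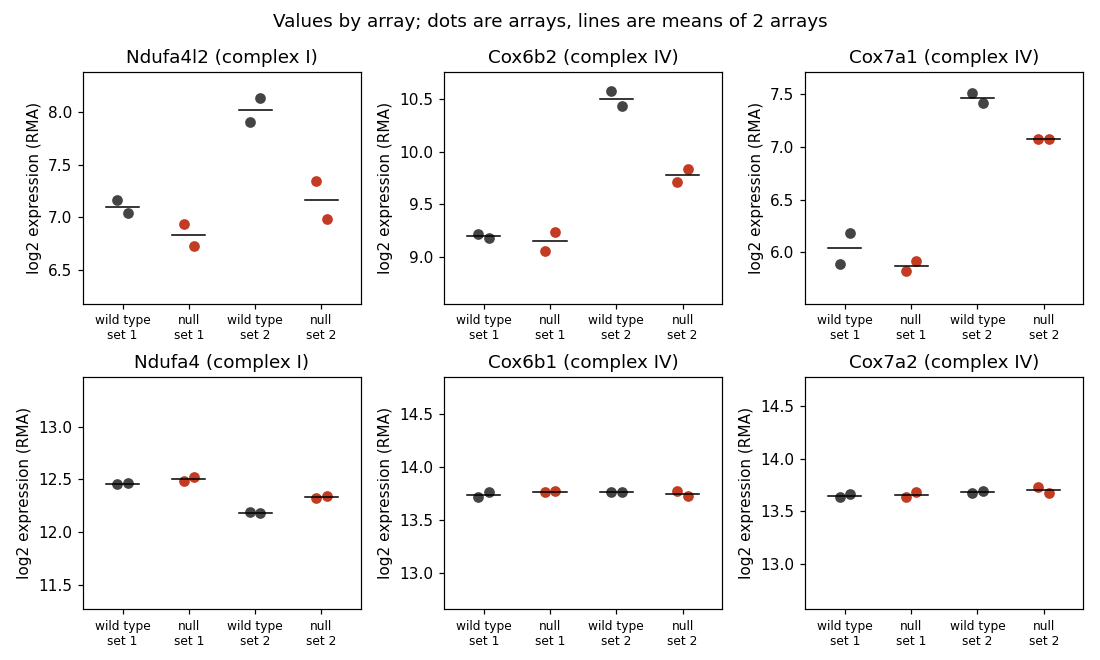
Log2 expression of 3 genes with a tissue-restricted or inducible product (top) and their common partners (bottom) on each array, with the same span of 2.2 log2 units in every panel; dots are arrays and lines the mean of 2 arrays. Ndufa4l2, Cox6b2 and Cox7a1 are higher on average in set 2, although the sets overlap for Ndufa4l2. In set 2 Ndufa4l2 and Cox6b2 pass the genotype test and Cox7a1 does not (adjusted p = 0.0978, limma), while Cox6b1 stays between 13.72 and 13.77.

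Cox7a1 encodes the form of subunit VIIa typical of heart and skeletal muscle. It read 5.89 and 6.19 in wild type and 5.83 and 5.92 in null arrays of set 1, and 7.51 and 7.41 against 7.08 and 7.08 in set 2. The set 1 groups overlapped and the set 2 groups did not. The differences were -0.17 and -0.38 (adjusted p = 0.611 and 0.0978, limma), and -0.27 over both sets (adjusted p = 0.119, limma). Over both sets it passed when the wild type array 1_1 was left out (adjusted p = 0.0329, limma). Its common partner Cox7a2 was at 0.0093 and 0.021.

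For the remaining isoform pairs of complex IV, 0 differences passed. Cox4i1, the common form of the regulatory subunit, read between 13.48 and 13.60 on all arrays, and Cox4i2, its low-oxygen and lung form, between 5.86 and 6.16. Cox6a1, the common form of subunit VIa, was at -0.012 and 0.035 in sets 1 and 2, and the muscle form Cox6a2 at -0.096 and -0.063. Cox8b, the muscle form of subunit VIII, read 7.82 and 7.94 in wild type and 7.46 and 7.65 in null arrays of set 1. In set 2 it read 7.78 and 7.70 in wild type and 7.83 and 8.08 in null arrays. The null arrays were thus the lower ones in set 1 and the higher ones in set 2, each without overlap, by -0.32 and 0.22. Neither difference passed (adjusted p = 0.252 and 0.377, limma), nor did the interaction of 0.54 (adjusted p = 0.275, limma). The common form Cox8a was at 0.063 and 0.026, and the germ cell form Cox8c at 0.081 and -0.0063. Cox7b2, a further tissue-restricted form, was at 0.14 in set 1, and Cox7c, a common small subunit, at -0.090 and 0.15.

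With Ndufa4l2 and Cox6b2 set aside, the other 62 differences ran from -0.32 to 0.25 in set 1 and from -0.38 to 0.22 in set 2, and the smallest adjusted p-values were 0.252 and 0.0978 (limma). Averaged over its genes on each array, complex I lay at 11.51 and 11.55 in wild type and 11.48 and 11.54 in null arrays of set 1. In set 2 complex I lay at 11.63 and 11.62 in wild type and 11.56 and 11.54 in null arrays. The genotypes overlapped in set 1 and not in set 2, where the mean differed by -0.073, Ndufa4l2 included. In set 2 the complex IV means were 10.54 and 10.54 in wild type and 10.49 and 10.48 in null arrays, again without overlap, a difference of -0.053. Without Cox6b2 and Cox7a1 the mean of the other 15 complex IV genes differed by 0.014 in set 2. Without Ndufa4l2 that of the other 34 complex I genes differed by -0.051. The genes left out had the lowest set 2 differences of their complex, so leaving them out could only raise the mean. With no gene left out, 8 of 17 complex IV differences were above zero in set 2 (median -0.0063), and 8 of 35 in complex I (median -0.058). For complex III the null minus wild type mean was 0.016 in set 1 and 0.0073 in set 2, and for complex II 0.022 and -0.023. These means describe the chosen genes and were not tested.

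**Figure D3:**
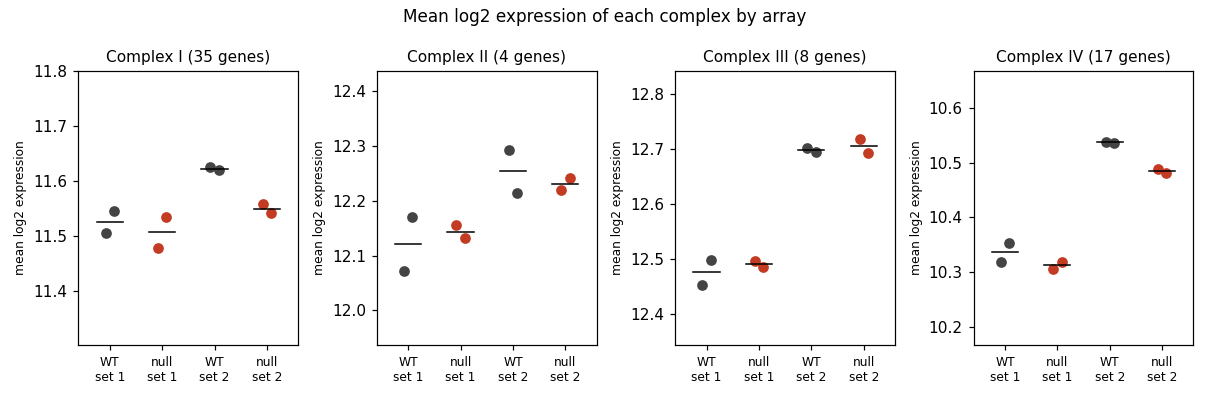
Mean log2 expression of the genes of each complex on each array, with the same span of 0.5 log2 units in every panel; dots are arrays and lines the mean of 2 arrays. In set 2 the null arrays of complexes I and IV lie below the wild type arrays, by 0.073 and 0.053. In complex IV 8 of 17 gene differences were above zero in set 2, with a median of -0.0063. Without its lowest genes, Cox6b2 and Cox7a1, the complex IV mean differs by 0.014, and leaving out the lowest genes could only raise it.

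The Y-linked genes Eif2s3y and Uty were lower in null arrays of set 2, by -0.93 and -0.57 (adjusted p = 0.00917 and 0.0137, limma), and Kdm5d was at -0.72 (adjusted p = 0.0539, limma). In set 1 Eif2s3y (-0.35) and Uty (-0.27) were lower without overlap and Kdm5d (-0.19) overlapped, and none passed. Over both sets Eif2s3y (-0.64) and Uty (-0.42) passed (adjusted p = 0.0391 and 0.0266, limma), and Kdm5d (-0.45) did not (adjusted p = 0.149, limma). With the mean of these 3 genes as a covariate, 0 of the 64 genes passed in set 2, where Ndufa4l2 was at -1.57 (adjusted p = 0.521, limma) and Cox6b2 at -0.26 (adjusted p = 0.916, limma). That fit left 2 passing genes of 18193 in set 2, and its part in the result was otherwise not tested. Actin control probe sets, whose difference between the ends of the transcript is a sign of RNA quality, gave 0.52 to 0.54 in wild type and 0.47 to 0.49 in null arrays of set 1, without overlap. In set 2 they gave 0.36 to 0.39 in wild type and 0.33 to 0.36 in null arrays, with overlap. The same difference in the Gapdh controls was -0.076 to -0.074 in wild type and -0.102 to -0.086 in null arrays of set 1, without overlap. In set 2 the Gapdh controls gave -0.105 to -0.074 in wild type and -0.115 to -0.099 in null arrays, with overlap. Their part in the genotype values was not tested.

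Markers of other cell types, some of which use the tissue-restricted forms, passed only in the oligodendrocyte lineage list. Of 4 endothelial and pericyte markers 0 passed in any genotype comparison, and their summed log2 level was 7.26 to 7.59 in wild type and 7.43 to 7.60 in null arrays. Cldn5, an endothelial junction protein, was at 0.10 over both sets, and the pericyte receptor Pdgfrb at 0.011 in set 2. Of 4 striated muscle markers 0 passed, with a summed level of 7.60 to 7.77 in wild type and 7.51 to 7.90 in null arrays and the creatine kinase gene Ckm at -0.13. Of 3 germ cell markers 0 passed, with a summed level of at most 6.52 in wild type and 6.24 to 6.43 in null arrays and the sperm chromatin gene Tnp1 at -0.091. Of 4 microglial markers 0 passed, with Aif1 at 0.076. Of 4 neuronal markers 0 passed, with the synaptic gene Snap25 at -0.35 (adjusted p = 0.0692, limma). Of 3 astrocyte markers 0 passed, with the water channel gene Aqp4 at -0.32 (adjusted p = 0.183, limma). Of 3 measured oligodendrocyte lineage markers, Pdgfra, the progenitor receptor, fell by 0.85 in set 1 and by 0.49 in set 2 (adjusted p = 0.0053 and 0.0442, limma). Mbp, a myelin gene named after its values were seen, rose by 0.87 in set 1 (adjusted p = 0.00346, limma) and was at 0.015 in set 2. The part of the oligodendrocyte lineage in the respiratory chain values was not tested.

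The difference between sets, compared after the data were seen, was larger than that between genotypes. In set 2 against set 1, 25 of the 64 genes rose and 5 fell (limma, Benjamini-Hochberg adjusted), where 43.8% of all genes passed, 22.2% higher and 21.6% lower. When each array was centred on its median gene, the median of all genes moved from -0.011 to -0.13 and the count became 13 higher and 20 lower, so the direction of the family as a whole depends on the scaling. The actin end difference was 0.47 to 0.54 on the arrays of set 1 and 0.33 to 0.39 on those of set 2, without overlap. That of the Gapdh controls was -0.102 to -0.074 in set 1 and -0.115 to -0.074 in set 2, with overlap. In set 2, 2 of 3 oligodendrocyte lineage markers rose, with a list median of 1.09. The part of RNA quality or of these markers in the set difference was not tested. Complex medians were 0.041, 0.099, 0.19 and 0.11 for complexes I to IV as deposited and -0.080, -0.022, 0.074 and -0.011 after centring. Complex III was thus the 1 complex with a median above zero under both, and 6 of its 8 genes rose as deposited, led by Uqcrc1 (0.49) and Uqcrc2 (0.42).

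The 3 largest differences between sets belonged to Cox7a1, Cox6b2 and Ndufa4l2. Cox7a1 was higher in set 2 by 1.32 (95% interval 1.15 to 1.48; adjusted p = 1.51e-06, limma), Cox6b2 by 0.96 (adjusted p = 0.000167, limma) and Ndufa4l2 by 0.62 (adjusted p = 0.00289, limma). The arrays of the sets overlapped for Ndufa4l2, and for Cox7a1 and Cox6b2 they did not. Ndufa4l2 means in sets 1 and 2 were 7.10 and 8.02 in wild type and 6.83 and 7.17 in null arrays. After centring the 3 genes were still higher, by 1.19, 0.84 and 0.50. Uqcrc1 and then Ndufa10, a complex I accessory subunit at 0.44, came next. The lowest were Ndufb1 (-0.23), Ndufa4 (-0.22) and Cox6a2 (-0.22). Of the other tissue-restricted forms, Cox6a2 fell (adjusted p = 0.0221, limma), and Cox7b2 at 0.17, Cox8b at 0.13, Cox4i2 at 0.042 and Cox8c at -0.077 did not pass. Of the common forms, Cox6a1 (0.33, adjusted p = 0.000439, limma) and Cox8a (0.28, adjusted p = 0.00164, limma) rose, and Cox6b1 (0.0013), Cox7a2 (0.039) and Cox4i1 (-0.032) did not pass. These values use the same arrays as the genotype comparisons in each set. Since the labels define no set, the difference is given by set number only.

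**Figure D4:**
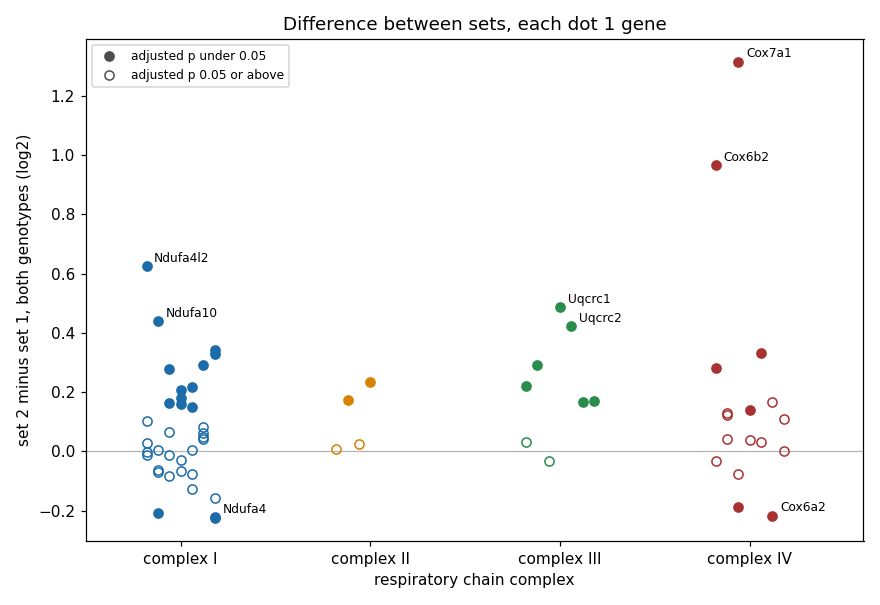
Set 2 minus set 1 log2 difference, both genotypes together, for the 64 genes by complex; each dot is 1 gene, and filled dots have an adjusted p under 0.05. Cox7a1 (1.32), Cox6b2 (0.96) and Ndufa4l2 (0.62) are highest, and 6 of the 8 complex III dots are filled and above zero.

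Genes that build or serve the chain gave few changes. Of 13 complex I assembly factors 0 passed in any genotype comparison, and Ndufaf1, needed early in assembly, had the smallest p with -0.27 over both sets (adjusted p = 0.0866, limma). Of 27 measured assembly factors of complexes II to IV (29 listed) 0 passed, with the copper chaperone gene Sco1 at 0.18 (adjusted p = 0.248, limma). Of 16 ATP synthase genes 0 passed, with the inhibitor gene Atpif1 at -0.17 (adjusted p = 0.174, limma). Of 4 genes for cytochrome c and the acyl carrier subunit 0 passed, with the testis cytochrome c Cyct at -0.075 (adjusted p = 0.638, limma). The 13 listed subunits encoded by mitochondrial DNA were not analysed here.

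Upstream of the chain, 0 of 16 measured genes of pyruvate dehydrogenase and the citrate cycle (17 listed) passed, and the fumarase gene Fh1 was at 0.057. Among the 4 pyruvate dehydrogenase kinases, which hold pyruvate back from the citrate cycle, 0 rose and 1 fell. Pdk4 read 6.34 and 5.95 in wild type and 5.11 and 5.71 in null arrays of set 1, and 7.32 and 6.71 against 6.21 and 6.25 in set 2. Its null arrays were the lower ones in each set, and it fell by 0.76 over both (adjusted p = 0.0386, limma), with 0.225 and 0.128 as adjusted p in the single sets.

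Of 17 regulators of mitochondrial gene expression 0 passed, with the Ets factor gene Gabpb1 at 0.14 (adjusted p = 0.367, limma). Of 76 mitochondrial ribosomal protein genes 0 passed, with a median of 0.026 and Mrpl49 at 0.18 (adjusted p = 0.197, limma). Of 5 measured mitophagy and HIF-linked mitochondrial genes (7 listed) 0 passed over both sets and 2 fell in set 1, where 104 of all 18193 genes fell. Bnip3, a receptor that marks mitochondria for removal, read 12.95 and 12.63 in wild type and 12.16 and 11.51 in null arrays of set 1. It fell by 0.96 there (adjusted p = 0.0486, limma) and was at -0.41 in set 2. Higd1a, a small inner membrane protein induced in low oxygen, fell by 0.53 in set 1 (adjusted p = 0.0216, limma) and was at -0.16 in set 2. Their interactions did not pass (adjusted p = 0.601 and 0.368, limma). All 5 genes of that list had negative differences in each set, with medians of -0.21 in set 1 and -0.16 in set 2. Among all 18193 genes, 8075 were below zero in set 1 and 8945 in set 2. The list was chosen with earlier results of these data known.

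Where a gene had more than 1 probe set, the others gave the same call, which was always of no difference passing. Ndufa4l2 and Cox6b2 have 1 probe set each, so their calls could not be compared with a second one. Of the 64 genes, 26 had 1 probe set and 38 had more. Apart from the probe sets of Ndufa4l2 and Cox6b2, 0 of the matching probe sets passed in any of the 4 genotype comparisons when all 45037 probe sets were tested, those with several symbols included.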

How the data were processed

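Values were the authors' deposited log2 expression values, 1 per probe set and array, which, per the submitters' processing notes, come from RMA; the version, and whether all arrays were processed together, are not given in the sources used here. RMA corrects background, quantile-normalises and summarises probes. It compresses differences of dim probe sets, and a shift common to all genes is removed. Of 45101 probe sets, 64 controls were left out. Of the remaining 45037, 34945 carry 1 gene symbol in the platform annotation and stood for 18193 genes, each through its brightest one on average. Scanner files were not used here. Promoter sequences and motif positions came from RefSeq tables.

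All tests used limma 3.58.1 (lmFit and eBayes, two-sided), run in R 4.3.3. Over both sets the model had set as a term. The single sets and the interaction came from 1 fit with 4 group means. P-values were Benjamini-Hochberg adjusted over all genes, and a gene passed under 0.05. Array number limits the precision. The fit was tested on simulated data.

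The members and the gene and marker lists were chosen with earlier results of these data known. Genes named were Foxo3, passing members, the 2 highest and 2 lowest of each complex in each set, all Sdh genes, the isoform pairs, and from each list up to 2 passing genes or that with the smallest p. Any other gene named was chosen after its values were seen.

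Whether replicate numbers pair arrays was checked. Within sets, same-numbered arrays' deviations correlated at 0.118 in set 1 and -0.110 in set 2, so the numbers were not used as pairs. Alternatives covered the set term, replicate block, single-set fits, normalisation, centring, dim genes, variance model, threshold, probe set choice, array means, Y-linked genes as a covariate and leaving out each array. The comparison of set 2 with set 1 and the crossed block were added after seeing the data.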

Additional observations from a re-analysis of the deposited data

Results flagged for a closer look

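Within each genotype, 4 arrays were compared for each member, for the mean of all members and for the mean of each complex, 138 groups in all. In 4 of them 1 array stood far from the other 3 by Dixon's test, which by chance marks about 1 in 20 groups. Cox6b1 was lowest in the wild type array 1_1 at 13.7159 (nearest 13.7618) and in the null array 2_2 at 13.7243 (nearest 13.7652), gaps that are small because the other arrays of each genotype nearly coincide. Ndufb10 was highest in the wild type array 2_1 at 11.2226 (nearest 11.1651). Uqcrq was highest in the null array 2_1 at 12.2276 (nearest 12.1373). None of the 3 genes passed in a genotype comparison.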

How the results depend on the processing

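Counts are of the 64 genes passing. Over both sets the count was 1 with a variance trend, 1 at an adjusted p under 0.10 (Ndufa4l2 each time) and 0 to 1 when each array was left out, with Cox7a1 passing without the wild type array 1_1 and Ndufa4l2 without the null array 1_1. In set 1 it was 0 under every alternative run. In set 2 it was 1 over genes above the median level, where Ndufa4l2 was not tested (58 of the 64 genes, 9096 in all), 4 with a variance trend (Ndufv3 and Ndufb8 joined), 3 at an adjusted p under 0.10 (Cox7a1 joined), 0 with the Y-linked covariate and 1 to 2 with arrays left out. The interaction gave 1, Cox6b2, over genes above the median level and 1 with a variance trend. Set 2 against set 1 gave 3 with the Y-linked covariate and 23 to 28 with arrays left out. With a replicate block the count stayed at 2 in set 2 and 0 in the other genotype comparisons, while over all genes 133, 104, 195 and 14 passed over both sets, in set 1, in set 2 and for the interaction, from 291, 135, 351 and 34. Crossing the numbers of set 2 gave 206, 160, 322 and 34. Over all genes and both sets, 3 passed with no set term, 0 on array means, 8 with the Y-linked covariate, 620 with a variance trend, 456 above the median level, 541 at 0.10 and 104 to 222 with arrays left out. In set 1, 63 passed with that set fitted alone, 275 above the median level, 403 with a variance trend, 265 at 0.10, 80 over all probe sets, 12 with the covariate and 15 to 117 with arrays left out (15 without the wild type array 1_1). In set 2 alone 171 passed, with a variance trend 795, at 0.10 603, over all probe sets 216, with the covariate 2 and with arrays left out 84 to 289 (84 without the wild type array 2_1). The background shares move with these counts. The cause of these shifts was not tested. Dim probe sets limit what can be read for Ndufb4, Cox7b2 and Cox4i2, and also for Cox7a1, Ndufs5 and Ndufa4l2. Mean log2 levels were 6.61 for Cox7a1, 6.99 for Ndufs5 and 7.28 for Ndufa4l2, which were also not among the genes above the median level. A brighter probe set of Ndufs5, at 11.74, also carries the symbol Ndufs5-ps and represented no gene.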

Other observations

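The genes around the chain also differed between the sets, as values on the deposited scale (limma, Benjamini-Hochberg adjusted). In set 2 against set 1, 6 of 13 complex I assembly factors were higher and 2 lower, and 11 of 27 assembly factors of complexes II to IV were higher and 2 lower. Of 16 ATP synthase genes 2 were higher and 0 lower, and of 16 genes of pyruvate dehydrogenase and the citrate cycle 5 and 0. Of the 4 pyruvate dehydrogenase kinases 3 were higher, and the median of the 4 was 0.82. Of 76 mitochondrial ribosomal protein genes 18 were higher and 6 lower. Among all genes 22.2% were higher and 21.6% lower, and centring each array on its median gene shifts the median of all genes to -0.13.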
